A study of Bos taurus with 9 samples.

Results

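Fatty acid elongases and desaturases set the length and the degree of unsaturation of the acyl chains that a cell stores or builds into membranes. Probe sets named with exactly 1 of the symbols ELOVL5, ELOVL6, ELOVL7, SCD, FADS1 and FADS2 were taken from the array annotation. This gave 5 of the 24016 probe sets tested, 1 for each of 5 genes, of 9155 genes named on the array. FADS1 was matched by no probe set named with a single symbol and is not analysed here. Expression was measured on 9 one-colour Affymetrix bovine arrays of 24-month-old Yan yellow cattle bulls, with 3 arrays each of abdominal adipose tissue, subcutaneous adipose tissue and the longissimus dorsi, the long skeletal muscle of the back. The animals were of 1 breed and were kept under the same conditions. The labels count 9 bulls without saying which samples share an animal, so a p-value here reflects sample-to-sample spread, which may in part be technical.

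The elongases catalyse the first, condensing step of chain elongation in the endoplasmic reticulum, which adds carbon from malonyl-CoA to an acyl-CoA. ELOVL6 acts mainly on saturated and monounsaturated chains of the length that fatty acid synthase releases, ELOVL5 mainly on polyunsaturated chains, and ELOVL7 on long saturated and polyunsaturated chains. SCD, stearoyl-CoA desaturase, makes the monounsaturated oleate and palmitoleate, and FADS2 and FADS1 insert the unsaturated bonds that turn linoleate and linolenate into longer polyunsaturated fatty acids. In cattle, adipose tissue is a main site of fatty acid synthesis.

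Values below are the log2 of deposited intensities. No depth exists for an array, and the number of arrays limits the precision. A level under 6 is treated as near background, where the size of a difference is not exact. Array medians were 5.89 on each abdominal array, between 5.87 and 5.92 in subcutaneous fat and between 5.75 and 5.79 in muscle, so their mean was 0.12 higher in fat than in muscle. Tissue identity was checked with marker genes. The mean level of 6 measured adipocyte markers was 12.10 to 12.27 on the abdominal arrays, 11.76 to 11.92 on the subcutaneous arrays and 8.33 to 9.29 on the muscle arrays. For 8 muscle fibre markers the mean was 5.12 to 6.50 on abdominal, 5.63 to 6.03 on subcutaneous and 12.50 to 12.69 on muscle arrays. Of these 8 markers 7 were lower in adipose tissue than in muscle and 1 was higher. RNA integrity was read from control genes, as the intensity of the 3' probe set over that of the 5' probe set. For actin this ratio was 2.24 to 5.69 on the abdominal arrays, 3.86 to 8.17 on the subcutaneous arrays and 0.963 to 1.04 on the muscle arrays. For GAPDH it was 1.26 to 1.62, 1.21 to 1.74 and 0.937 to 1.01 in the same order of tissues. For the third control, EF1A, it was 0.473 to 0.622, 0.529 to 0.650 and 0.278 to 0.354. The EF1A ratio was thus under 1 on every array, so the absolute size of a ratio does not read integrity alone. The ratios therefore moved with every difference between fat and muscle below, and their part in them was not tested. Markers of some other cells moved too. The mean of 6 macrophage markers was 9.13 to 10.37 on abdominal, 9.13 to 10.22 on subcutaneous and 6.68 to 7.70 on muscle arrays, and all 6 were higher in adipose tissue. Of 7 endothelial markers 6 were higher, with means of 7.96 to 8.18, 7.42 to 7.56 and 5.83 to 6.04 in the same order of tissues. Of 7 fibroblast and preadipocyte markers 5 were higher, with means of 10.53 to 11.65, 10.26 to 10.58 and 9.15 to 9.87. Among all 9155 genes 32% were higher in adipose tissue. Of 6 mesothelial markers 1 was higher and 1 lower, of 5 lymphocyte markers 0 passed, and of 3 blood markers 2 were lower. The part of these cells was not tested either.

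ELOVL6, ELOVL5 and SCD were higher in both fat depots than in muscle, ELOVL7 was higher in abdominal fat than in either of the other tissues, and FADS2 was dim and slightly lower in fat. With limma and Benjamini-Hochberg adjustment over all probe sets, 4 of the 5 genes were higher in adipose tissue (the mean of both depots) than in muscle and 1 was lower, at an adjusted p under 0.05. Among all probe sets 52.6% passed in this comparison, 26.2% higher and 26.4% lower in adipose tissue, so a passing difference between these tissues is common. Of the passing probe sets 49.8% were higher in adipose tissue, and 39.2% were with each array centred on its median. In tissue samples, more cells of a type cannot be told apart from more RNA per cell.

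ELOVL6 read 10.85, 9.75 and 10.56 on the abdominal arrays, 9.86, 9.02 and 9.95 on the subcutaneous arrays and 5.45, 3.89 and 6.75 on the muscle arrays. The 6 fat arrays lay above the 3 muscle arrays, and muscle was the most variable tissue, with an SD of 1.43, against 0.57 in abdominal and 0.52 in subcutaneous fat. Adipose tissue exceeded muscle by 4.64 ± 0.53 (SE; adjusted p = 5.4e-05), a 24.9-fold difference with a 95% interval of 3.45 to 5.82 on the log2 scale. The muscle mean of 5.36 was under 6, so this size is not exact.

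ELOVL5 stood at 11.75, 11.12 and 11.65 in abdominal fat, at 12.14, 10.80 and 11.50 in subcutaneous fat and at 8.16, 7.33 and 8.84 in muscle. All 9 values were above 6, so the background did not limit this comparison, and fat and muscle did not overlap. The difference between adipose tissue and muscle was 3.38 ± 0.35 (SE; limma adjusted p = 3.01e-05), or 10.4-fold.

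The values of SCD, the desaturase of oleate synthesis, were 13.50, 12.79 and 13.34 in abdominal fat, 13.64, 13.31 and 13.65 in subcutaneous fat and 10.21, 9.08 and 11.51 in muscle. Fat and muscle did not overlap. The difference between adipose tissue and muscle was 3.10 ± 0.42 (SE; limma adjusted p = 0.000171). SCD lay 0.30, 0.87 and 0.38 under the brightest probe set of the array on abdominal replicates 1, 2 and 3. It lay 0.07, 0.40 and 0.06 under it on subcutaneous replicates 1, 2 and 3, against 2.53 to 4.91 in muscle. The brightest probe set of muscle replicate 1 read 14.09, above every SCD value in fat. Whether the SCD signal in fat was limited by its brightness was not tested.

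**Figure D1:**
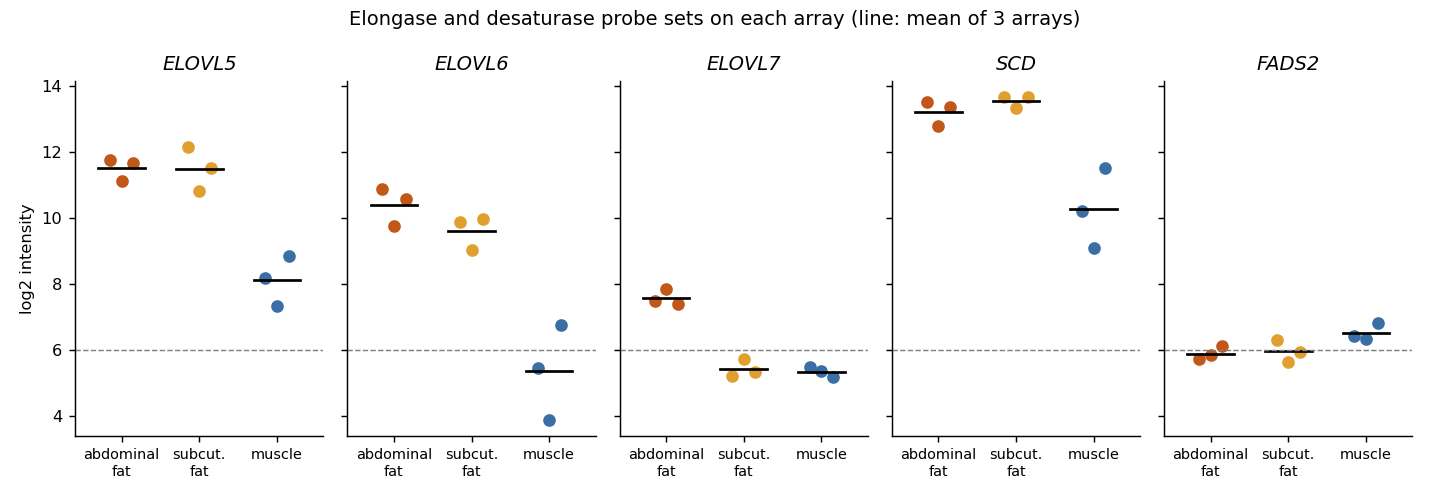
Log2 intensity (y axis) of the 5 probe sets, one panel per gene, on the 3 arrays each of abdominal fat, subcutaneous fat and muscle; each point is an array, black lines are means and the dashed line marks a level of 6. ELOVL5, ELOVL6 and SCD are higher on all 6 fat arrays than on the muscle arrays, ELOVL7 is above 6 in abdominal fat only, and FADS2 stays between 5.63 and 6.82 on all 9 arrays.

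FADS2, which starts the conversion of linoleate and linolenate, did not follow SCD. It read 5.72, 5.84 and 6.11 in abdominal fat, 6.29, 5.63 and 5.93 in subcutaneous fat and 6.41, 6.32 and 6.82 in muscle. The highest fat array, at 6.29, lay just under the lowest muscle array, at 6.32. The difference between adipose tissue and muscle was -0.60 ± 0.17 (SE; limma adjusted p = 0.0158), with both fat means under 6. Leaving out muscle replicate 3 ended the call (-0.44, adjusted p = 0.0654). In the RefSeq annotation of assembly ARS-UCD2.0, FADS2 lies between FADS1 and FADS3. The neighbour FADS3, a related desaturase, differed in the opposite direction, by 1.35 ± 0.21 (limma adjusted p = 0.000372). The muscle mean of FADS3, 5.53, was under 6, so this size is not exact.

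Each depot was also set against muscle on its own. Both comparisons share the muscle arrays. Abdominal fat exceeded muscle by 3.40 for ELOVL5, 5.02 for ELOVL6 and 2.94 for SCD, and was lower for FADS2 (-0.63), with limma adjusted p-values of 0.000102, 0.000109, 0.000771 and 0.0273. Subcutaneous fat exceeded muscle by 3.37 for ELOVL5, 4.25 for ELOVL6 and 3.26 for SCD, and was lower for FADS2 (-0.57), with limma adjusted p-values of 0.000105, 0.000311, 0.000395 and 0.0415. In abdominal fat against muscle all 5 genes passed, 4 of them higher, where 46.6% of all probe sets passed, 23.5% higher and 23.1% lower. In subcutaneous fat against muscle 4 genes passed, 3 of them higher, where 47.0% of all probe sets passed, 24.6% higher and 22.4% lower. With arrays centred, the share of higher among the passing probe sets was 40.1% in place of 50.5% for abdominal fat, and 41.2% in place of 52.3% for subcutaneous fat. The FADS2 call between abdominal fat and muscle ended when muscle replicate 3 (adjusted p = 0.0792), abdominal replicate 1 (0.0928) or abdominal replicate 2 (0.0718) was left out. Between subcutaneous fat and muscle it ended on leaving out either of muscle replicates 1 (0.0646) and 3 (0.12), either of abdominal replicates 1 (0.0515) and 2 (0.0567), or either of subcutaneous replicates 2 (0.147) and 3 (0.0937).

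ELOVL7 was the member whose level separated the depots. Abdominal fat read 7.49, 7.83 and 7.38, against 5.19, 5.71 and 5.32 in subcutaneous fat and 5.49, 5.35 and 5.17 in muscle. All 3 abdominal arrays lay above all 6 others, while subcutaneous fat and muscle overlapped and stayed under 6. The abdominal level exceeded the subcutaneous level by 2.16 ± 0.18 (SE; limma adjusted p = 0.00168), or 4.46-fold, in a comparison where 1.31% of all probe sets passed and 0.641% were higher in abdominal fat. It exceeded the muscle level by 2.23 ± 0.18 (limma adjusted p = 7.9e-06). Subcutaneous fat differed from muscle by 0.07 with a 95% interval of -0.32 to 0.47 (limma adjusted p = 0.758), a direction that turned with arrays centred on their medians (-0.05) and without muscle replicate 3 (-0.01) or subcutaneous replicate 2 (-0.08). The passing difference of 1.15 between the mean of both depots and muscle (limma adjusted p = 0.000151) therefore came with overlapping fat and muscle arrays.

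Markers of other cells were set beside ELOVL7. The mean level of 6 mesothelial markers, cells that line the abdominal cavity, was 6.57, 4.64 and 6.14 on abdominal replicates 1, 2 and 3, against 4.45 to 4.65 in subcutaneous fat. None of these 6 genes passed between the depots, and their median difference was 0.78. Of the 7 endothelial markers 1 passed, the receptor TEK, at 1.09 (limma adjusted p = 0.0293), and their median difference was 0.53. Of the 7 fibroblast and preadipocyte markers 1 passed, SFRP2, a secreted modulator of Wnt signals, at 2.45 (limma adjusted p = 0.0248), and their median difference was -0.14. The part of mesothelial cells, endothelial cells and preadipocytes in the ELOVL7 difference was not tested.

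The other 4 genes did not pass between the depots, and the intervals leave room for differences of some size. For ELOVL5 the abdominal minus subcutaneous difference was 0.03, with a 95% interval of -0.88 to 0.94. For ELOVL6 it was 0.77, from -0.59 to 2.14. For SCD it was -0.32, from -1.41 to 0.76, with SCD 0.06 to 0.87 under the brightest probe set of each fat array. For FADS2 it was -0.06, from -0.51 to 0.39. In descending order the tissue means thus ran abdominal fat, subcutaneous fat, muscle for ELOVL5 (11.51, 11.48, 8.11) and ELOVL6 (10.39, 9.61, 5.36), with the 2 depots not separated, and subcutaneous fat, abdominal fat, muscle for SCD (13.53, 13.21, 10.27), again with the depots not separated.

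**Figure D2:**
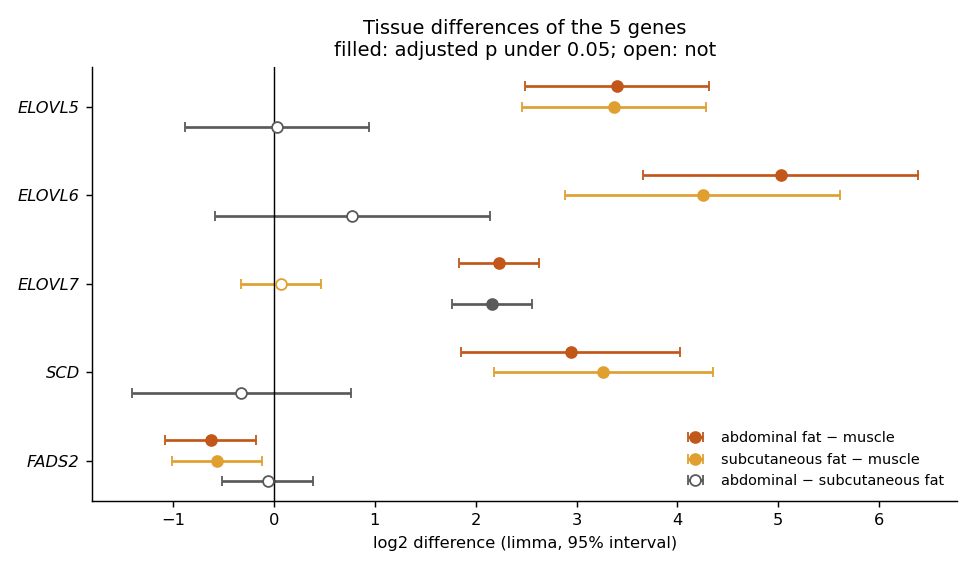
Log2 differences (x axis) of the 5 genes for abdominal fat minus muscle, subcutaneous fat minus muscle and abdominal minus subcutaneous fat, with 95% intervals from limma; filled points passed an adjusted p of 0.05. ELOVL7 is the only one of the 5 genes with a filled depot difference (2.16), and its subcutaneous difference from muscle is 0.07.

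Within each tissue ELOVL5, ELOVL6 and SCD shared the array on which they were lowest. That array was replicate 2 in abdominal fat, subcutaneous fat and muscle alike. In muscle the deviations from the tissue mean on replicates 1, 2 and 3 were 0.09, -1.47 and 1.39 for ELOVL6, -0.06, -1.18 and 1.24 for SCD, and 0.05, -0.78 and 0.73 for ELOVL5. Replicate 2 was the lowest in all 3 tissues for 3 of the 5 genes and for 458 of 9155 genes, which is 5%. ELOVL7 was highest on replicate 2 in both fat depots. The sample titles of these 3 arrays begin with the same number, and the labels do not say what it marks.

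The mean of the adipocyte markers ran with ELOVL5, ELOVL6 and SCD among the muscle arrays, lowest on replicate 2 and highest on replicate 3. ELOVL7 was instead highest on muscle replicate 1 and lowest on replicate 3. The mean marker level was 9.05, 8.33 and 9.29 on muscle replicates 1, 2 and 3. Of the 6 markers 5 were lowest on replicate 2, where 2759 of all 9155 genes were lowest. LIPE was lowest on replicate 1, with deviations of -0.40, -0.24 and 0.63. Of the 6 markers 4 were highest on replicate 3, while FABP4 and LEP were highest on replicate 1. ADIPOQ, the adipocyte hormone adiponectin, read 7.85, 6.86 and 8.20 on muscle replicates 1, 2 and 3. CIDEC, a lipid droplet protein, read 8.96, 7.89 and 9.20. FASN, fatty acid synthase, which is not among the 6 markers, read 9.11, 8.50 and 10.14 on the muscle arrays. Of 14 genes that supply acyl chains, FASN among them, 7 were lowest and 4 highest on muscle replicate 2. The part of fat cells within the muscle samples in the muscle levels was not tested. In fat the markers did not move as one, and the medians of their deviations lay between -0.03 and 0.05. LEP, the adipocyte hormone leptin, was lowest on replicate 2 in both depots, at 10.74, 9.58 and 10.03 in abdominal and 10.16, 9.21 and 10.06 in subcutaneous fat. So was LPL, lipoprotein lipase, at 12.52, 11.72 and 12.51 in subcutaneous fat. The lipase LIPE was instead highest on replicate 2, with deviations of 0.34 in abdominal and 0.30 in subcutaneous fat. ADIPOQ was highest on subcutaneous replicate 2 (0.24). Of the 6 markers 3 were lowest and 1 was highest on abdominal replicate 2. On subcutaneous replicate 2, 3 were lowest and 3 highest. The size of the tissue difference rested on these muscle arrays: the adipose minus muscle difference was 3.90 for ELOVL6, 2.51 for SCD and 2.99 for ELOVL5 without muscle replicate 2, and 5.33, 3.72 and 3.75 without muscle replicate 3.

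**Figure D3:**
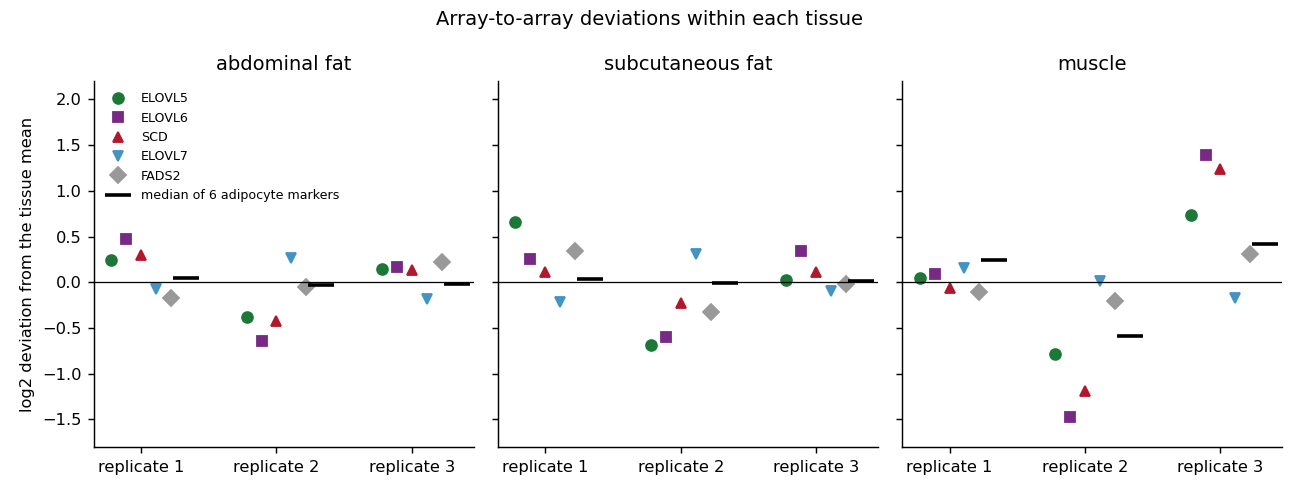
Deviation of each array from its tissue mean on the log2 scale (y axis) for the 5 genes (coloured symbols) and the median of 6 adipocyte markers (black bars), by tissue and replicate. ELOVL5, ELOVL6 and SCD lie lowest on replicate 2 of each tissue, and in muscle the median of the adipocyte markers is also lowest on replicate 2 (-0.59).

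Genes that work with the elongases and desaturases were read from 5 lists, with 59 of 73 genes measured and the brightest probe set standing for each gene. By 1 probe set per gene, 61.4% of 9155 genes passed between adipose tissue and muscle, 32% of all genes being higher and 29.5% lower, and the median difference over all genes was -0.02. Of the 59 genes 38 were higher, 9 were lower and 12 did not pass. Between the depots 0 of the 59 passed with limma, where 1.5% of all genes did, and 10 had an unadjusted p under 0.05. The smallest p of each list belonged to HACD4 (0.89, limma adjusted p = 0.141), CYB5A (0.79, 0.196), ACSL3 (1.03, 0.0805), NFYC (0.53, 0.0745) and the lysophospholipid acyltransferase MBOAT7 (-0.37, 0.284), as abdominal minus subcutaneous differences.

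Among elongation partners 3 of 4 measured genes were higher in adipose tissue, with a median of 0.96. These were ELOVL1 (1.46 ± 0.17), an elongase of very long saturated chains, HACD4 (1.08 ± 0.23), of the dehydratase family of the elongation cycle, and the very long chain elongase ELOVL4 (0.85 ± 0.23). For HACD4 the fat and muscle arrays overlapped. It passed for abdominal fat against muscle (1.52) but not for subcutaneous fat (0.63, limma adjusted p = 0.0705). ELOVL4 means were at most 4.31 in any tissue, and its other probe set differed by 0.01, so its size is not exact. TECR, the enoyl reductase that ends the cycle, did not pass (0.37, limma adjusted p = 0.166), but passed as higher with array weights (0.59, 0.0462).

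Among other desaturases and the proteins that supply them with electrons, 5 of 8 were higher, 2 lower and 1 did not pass, with a median of 0.91. CYB5A, the cytochrome b5 that carries electrons to SCD, was higher by 2.71 ± 0.23 (limma adjusted p = 7.74e-06). Its values were 10.71, 10.03 and 10.57 in abdominal fat, 10.23, 9.30 and 9.43 in subcutaneous fat and 7.12, 7.29 and 7.60 in muscle. The others higher were the sphingolipid desaturase DEGS1 (1.78), the cytochrome b5 reductase CYB5R3 (1.57), FADS3 and CYB5B (0.46), and CYB5B was lost with quantile normalization (0.24, adjusted p = 0.172) and with arrays centred on their medians (0.0506). It was also lost without muscle replicate 2 (adjusted p = 0.0599). CYB5R4 did not pass (0.10, limma adjusted p = 0.648).

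SCD5, a second stearoyl-CoA desaturase, ran opposite to SCD. It read 6.97, 7.08 and 7.29 in abdominal fat, 6.19, 5.81 and 6.13 in subcutaneous fat and 8.93, 8.64 and 10.38 in muscle, and the fat and muscle arrays did not overlap. The difference was -2.74 ± 0.32 (SE; limma adjusted p = 6.61e-05). CYB5R1, a relative of the b5 reductase, was lower by a similar amount (-2.98 ± 0.12, limma adjusted p = 7.5e-08).

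Of 14 genes that supply acyl chains and activated substrate, 9 were higher, 3 were lower and 2 did not pass, with a median of 1.53. THRSP, a lipogenic protein of adipose tissue and liver, was higher by 4.26 ± 0.36, and FASN by 3.38 ± 0.35. The lower genes were ACACB (-3.37 ± 0.13), the acetyl-CoA carboxylase that restrains fatty acid oxidation, MID1IP1 (-1.24) and the mitochondrial MCAT (-0.94). ACACB means were 4.00 in abdominal and 4.10 in subcutaneous fat, under 6, so its size is not exact. For MID1IP1 the fat and muscle arrays overlapped. It passed for abdominal fat against muscle (-1.73) but not for subcutaneous fat (-0.74, limma adjusted p = 0.0638). The acyl-CoA synthetases ACSL1 (0.30, limma adjusted p = 0.241) and ACSL3 (-0.19, 0.493) did not pass. Between the depots the dimmer probe sets of ACSL3 passed, at 1.10 (limma adjusted p = 0.0336) and 1.09 (0.0463).

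Among 18 regulators 9 were higher, 4 lower and 5 did not pass, with a median of 0.38. With quantile normalization 5 were higher. PPARG, the adipocyte receptor, stood apart at 4.24 ± 0.20. The lower genes were PPARA (-1.71 ± 0.34), a receptor that promotes fatty acid oxidation, the CCAAT-binding subunits NFYB (-1.70 ± 0.20) and NFYC (-0.64), and MLX (-0.48), a partner of the glucose-responsive factor MLXIPL. MLX did not pass once muscle replicate 1 (adjusted p = 0.0633) or 2 (0.0647) was left out. PPARA means were 4.55 in abdominal and 4.59 in subcutaneous fat, under 6, so its size is not exact. The other PPARA probe set, between 3.01 and 3.37 on all 9 arrays, differed by -0.0019.

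SREBF1, which encodes the sterol regulatory element-binding protein of lipogenic genes, read 10.01, 10.23 and 9.59 in abdominal fat, 9.78, 9.62 and 10.18 in subcutaneous fat and 9.20, 9.43 and 10.39 in muscle. The tissues overlapped, and the difference was 0.23 ± 0.26 (limma adjusted p = 0.484). Without muscle replicate 3 it was 0.59 and passed (adjusted p = 0.0345). Of its 3 other probe sets 1, with means of 4.64 for abdominal fat, 4.72 for subcutaneous fat and 5.53 for muscle, passed as lower (-0.85, limma adjusted p = 0.000206). Among the genes that control the cleavage of this protein, the protease MBTPS1 was higher by 1.21 ± 0.13 (limma adjusted p = 4.08e-05). SCAP (0.19), INSIG1 (0.75), INSIG2 (-0.03) and the protease MBTPS2 (0.09) did not pass. A dimmer SCAP probe set, at most 5.04 in its tissue means, passed as lower (-0.71, limma adjusted p = 0.000537). The INSIG1 difference passed without muscle replicate 3 (1.19, adjusted p = 0.0152) or subcutaneous replicate 2 (0.92, 0.0488), and with array weights (0.99, 0.037).

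Among 15 genes that use the products, 12 were higher, 0 lower and 3 did not pass, with a median of 0.97. With an array left out 9 to 11 were higher, and MBOAT7 (0.36, limma adjusted p = 0.0381) lost its call in 11 of 17 alternatives. DGAT2, which completes triacylglycerol, was higher by 3.56 ± 0.14 and MBOAT1, a lysophospholipid acyltransferase, by 1.39 ± 0.20. The peroxisomal enzyme HSD17B4 was higher by 1.68 ± 0.13, while its other probe set, with means of 6.10 for abdominal, 5.69 for subcutaneous and 6.06 for muscle arrays, differed by -0.16. LPCAT3 (-0.45), SCP2 (-0.16) and ALOX5 (-0.09) did not pass. LPCAT3 passed as lower without muscle replicate 1 (-0.73, adjusted p = 0.0359). Its other probe set, with means of 6.85 for abdominal, 7.19 for subcutaneous and 6.92 for muscle arrays, differed by 0.10 (limma adjusted p = 0.772).

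**Figure D4:**
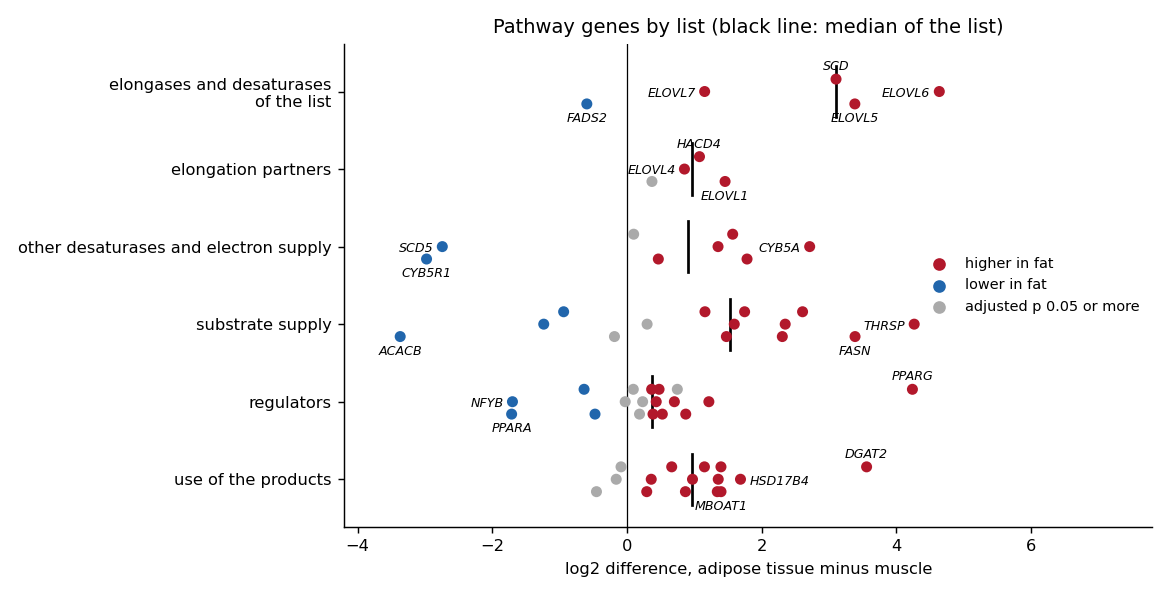
Log2 difference between adipose tissue and muscle (x axis) for the 5 genes and the 5 lists; each point is a gene, red higher and blue lower in fat at an adjusted p under 0.05, grey not passing, and black lines are medians. Medians run between 0.38 for the regulators and 1.53 for substrate supply among the lists, and SCD5 and CYB5R1 lie at the low end of the list on desaturases and electron supply.

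The genes of most similar pattern were those with the smallest root mean square difference from a member over the 9 arrays, after each profile was centred on its own mean, among 6719 genes. The tissues separate the arrays, so the measure mostly reflects the tissue contrast. For ELOVL5 they were the ephrin EFNA5 (0.23), the neurotrophin receptor NTRK2 (0.25) and the aminopeptidase XPNPEP2 (0.31), and SCD ranked 9 (0.38). For SCD they were clusterin, CLU (0.30), NTRK2 (0.30) and EFNA5 (0.31). For ELOVL6 they were THRSP (0.40), XPNPEP2 (0.48) and the acyl-CoA synthetase ACSM1 (0.55). For ELOVL7 they were the adhesion molecule CEACAM1 (0.31), COLQ (0.40) and the myosin MYO10 (0.41). CEACAM1 read 8.23, 9.56 and 8.32 in abdominal fat, 6.68, 7.14 and 6.64 in subcutaneous fat and 6.32, 6.50 and 6.38 in muscle. For FADS2, whose own range was small, they were DYRK1A (0.15), GAPVD1 (0.15) and ATG14 (0.15).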

How the data were processed

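The values are those of the deposited table, which gives an intensity for every probe set on every array, on a linear scale between 3.06 and 17450.5. The submitters' processing notes name RMA for them, with no version or setting. Their log2 was taken, with no added normalization or filter. Of 24128 probe sets 112 controls were left out. A single symbol was carried by 13292 of the rest (29 of them only by the array annotation's own symbol), several by 86 and none by 10638. Per the labels, RNA came from lipid tissue kits, which are named for adipose samples, and was labelled with biotin. No pair of arrays held identical values.

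limma 3.58.1 in R 4.3.3 fitted 1 mean per tissue over the 9 arrays (6 residual and 3.752 prior degrees of freedom). Tests were two-sided, with Benjamini-Hochberg adjustment over 24016 probe sets and a threshold of 0.05. Each SE is moderated. The fit was tested on simulated data. The simulated arrays were independent and few of their probe sets changed, unlike here, so this does not bear on pairing or RNA quality. Alternatives covered the prior variance, dim probe sets, scaling, array weights, a block for the title number, the arrays fitted and the threshold. The brightest probe set stands for a gene.

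The genes and lists were chosen with earlier results of these data known. By rule, the text names up to 3 passing genes of each list with the largest difference between adipose tissue and muscle, the gene of smallest p between the depots where none passed, and 3 genes of most similar pattern per member. All other genes of the lists and markers named in the text were named after their values were seen. Python 3.11.15 with pandas 2.3.3, numpy 2.4.6 and matplotlib 3.10.9 made the tables and plots.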

Additional observations from a re-analysis of the deposited data

Results flagged for a closer look

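ELOVL7 was singled out because its difference from muscle was not the same in both fat depots. The test of that difference, abdominal minus subcutaneous fat, gave 2.16 ± 0.18 on the log2 scale (SE, 3 arrays per depot; limma adjusted p = 0.00168). All 3 abdominal arrays lay above all 3 subcutaneous arrays, and the value was 2.03 to 2.31 with each array left out in turn, with adjusted p-values of 0.00346 to 0.0191.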

How the results depend on the processing

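Of 355 values of the 5 genes under the alternatives, 330 kept their direction and side of the threshold. A further 16 lost their call, all of them FADS2 against muscle, and 9 turned direction, none of which had passed. FADS2 also lost its call between subcutaneous fat and muscle with array weights (adjusted p = 0.0527) and in a fit of those arrays alone (0.0665).

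The count of probe sets passing between abdominal and subcutaneous fat, 314, was 1034 with array weights, 36 at an adjusted p under 0.01 and between 57 (without abdominal replicate 3) and 491 (without muscle replicate 3) with an array left out. It was 132 without muscle replicate 1, 105 and 74 without abdominal replicates 1 and 2, and 67, 90 and 79 without subcutaneous replicates 1, 2 and 3. ELOVL7 passed in each of these.

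The subcutaneous minus muscle difference of ELOVL7 was -0.0501 with centred arrays, -0.00734 with array weights and -0.0797 to 0.18 with an array left out. The abdominal minus subcutaneous difference was -0.31 to 0.36 for ELOVL5 and -0.22 to 0.11 for FADS2 with an array left out. For adipose minus muscle, centring gave -0.021 for CYB5R4 and -0.0263 for MBTPS2, and leaving out an array gave -0.10 to 0.26 for CYB5R4, -0.0062 to 0.59 for SREBF1 and -0.115 to 0.0461 for INSIG2. The cause was not tested.

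Deviations of the 7 array pairs whose titles begin with the same number correlated at 0.04 to 0.36, against -0.32 to 0.17 for 20 other pairs. All 7 were positive. Replicates 1 and 2 of the depots correlated at 0.33 and 0.36 within a number, and at -0.28 and -0.32 across numbers. Between muscle and subcutaneous fat, 5 of 6 arrays were closest to the array of their own number. The ranges overlap and the labels do not explain the number, so the main fit did not pair samples. Whether the number pairs samples was left unsettled. Not every array was closest to one of its own number: muscle replicate 3 and subcutaneous replicate 3 were closest to abdominal replicate 3 (0.17 and 0.09), whose title begins with another number. With the title number as a replicate block, 11930 probe sets passed for adipose tissue against muscle, 9502 for abdominal fat against muscle, 11116 for subcutaneous fat against muscle and 118 between the depots. FADS2 between abdominal fat and muscle did not pass there (-0.67, adjusted p = 0.0503), and INSIG1 (0.97, 0.00586) and ACSL1 (0.45, 0.0296) passed for adipose tissue against muscle. Each member has 1 probe set, so a mean over a gene's probe sets could not be run. For adipose tissue against muscle, the fit of only the tissues compared is the same fit.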
